A study of Homo sapiens with 3 samples.

Results

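The HDAC1 summits of chromosome 16 were profiled in HepG2 cells. A summit is the single base at the top of a called peak. All summits listed on chromosome 16 of the human build hg19 were taken, with no choice by score, which gave 725 of the 11553 summits of cells with H89 and 618 of the 9476 summits of control cells, 1343 of 21029 in both lists together. HepG2 is a human hepatocellular carcinoma line that is known to carry extra copies of chromosome 16. Copy number itself was not measured in the files used here. The 2 groups were HepG2 cells with H89 and HepG2 cells without it, both of genotype WT per the labels, with 1 HDAC1 library each. Neither the dose nor the time of H89 is given in the labels. The IgG library, made from cells without H89, was not analysed here, and these values therefore stand without a measured background.

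HDAC1 is a class I histone deacetylase. It removes acetyl groups from histone tails as the catalytic part of corepressor complexes such as Sin3, NuRD and CoREST, and it is found at promoters and enhancers of active genes as well as at silent ones. H89 is a small molecule that blocks the catalytic subunit of protein kinase A, the kinase through which cyclic AMP acts in liver cells, and it inhibits other kinases too. In CUT&Tag, an antibody brings a transposase to its target, and the fragments that it releases are sequenced. Chromosome 16 is a gene-rich chromosome with a large block of heterochromatin just below the centromere on the long arm, much of it unassembled in hg19. No annotation of hg19 was at hand, so no summit was assigned to a gene, and the genes named below are textbook contents of a band, without a value. No sequence is shown, because a genome of that build was not used here.

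Each summit carried the authors' score, read as the −log10 of a p-value. On chromosome 16 the H89 scores ran from 2.03 to 37.5 with a median of 4.76, and the control scores from 2.03 to 24.9 with a median of 4.08. Read depth is unknown in both libraries. With 1 library in each condition the differences have no replicate check, no test of H89 against control was possible, and all differences are between these libraries. The intervals given are exact 95% intervals (Clopper-Pearson for shares and ratios, Poisson for densities) and cover counting error only. For H89 to control ratios they take no account of the many sites common to both lists.

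Chromosome 16 held more HDAC1 summits with H89 than in the control, and most sites were common to both lists. The ratio of the numbers was 1.17 (interval 1.05 to 1.31), against 1.22 (1.18 to 1.25) over the 21 other autosomes. Of these 21, 16 had a higher ratio. Among chromosome 16 summits scoring 5 or more there were 328 with H89 and 246 in the control, a ratio of 1.33 (1.13 to 1.58). At 10 or more there were 89 with H89 and 50 in the control, a ratio of 1.78 (1.25 to 2.57). These were 12.3% (interval 9.98 to 14.9) of the H89 and 8.09% (6.06 to 10.5) of the control summits of the chromosome, beside 9.89% and 6.49% over the whole H89 and control lists. At 20 or more there were 18 with H89 and 5 in the control, a ratio of 3.60 with a wide interval (1.29 to 12.4). The other autosomes had ratios of 1.33, 1.85 and 2.44 at the same minimum scores, and each lay inside the interval of chromosome 16. A ratio that climbs with the minimum score is thus seen on chromosome 16 and outside it. Library depth, efficiency and H89 cannot be told apart in these values.

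Summits lay densely along chromosome 16 in both lists. There were 8.02 per Mb with H89 (interval 7.45 to 8.63) and 6.84 per Mb in the control (6.31 to 7.40). Over the other autosomes there were 3.68 per Mb with H89 and 3.02 in the control. The density was therefore 2.18-fold that of the other autosomes with H89 (interval 2.02 to 2.35) and 2.26-fold in the control (2.08 to 2.45). Single autosomes ranged widely around this. With H89 only chromosomes 17 (10.7 per Mb) and 19 (14.04) were denser, and chromosome 20 had 7.97 per Mb. In the control, chromosomes 17 (8.82), 19 (11.3) and 20 (6.93) were denser, and chromosome 13 had the lowest value in both lists (1.36 with H89, 1.03 in the control). Chromosomes 2, 14, 17 and 20 are also gained in HepG2, while 19 is the most gene-rich human chromosome. Chromosome 2 had 3.65 per Mb with H89 and 3.12 in the control, and chromosome 14 had 3.69 and 3.11. Chromosome 22, outside that gained set, had 6.26 and 4.91. Copy number and gene content cannot be told apart here, and nothing in this order is particular to chromosome 16.

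**Figure D1:**
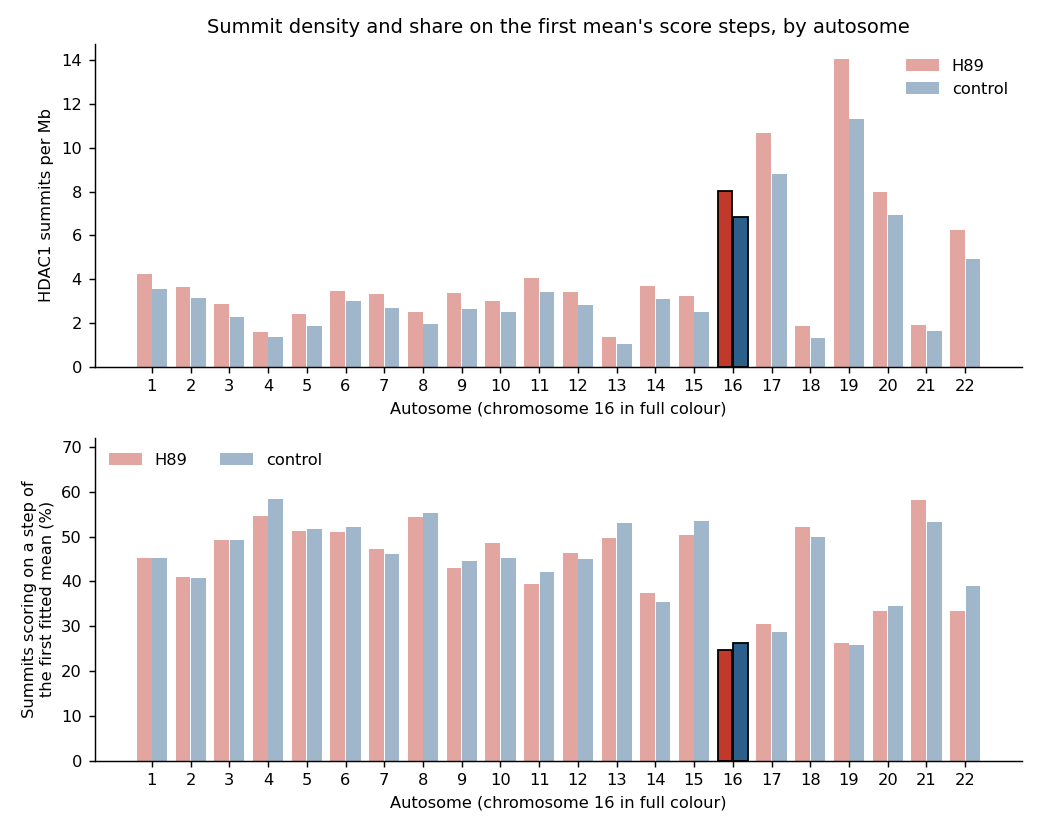
HDAC1 summits per Mb of each autosome (upper panel) and the percentage of its summits whose score lies on the commonest set of levels, the steps of the first fitted Poisson mean (lower panel), with H89 (red, left bar) and in the control (blue, right bar), 1 library each. Chromosome 16, in full colour, stands among the densest autosomes (8.02 and 6.84 per Mb) and among those with the lowest share on those steps (24.7% and 26.2%).

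The greater density was present in each Giemsa class shown. Giemsa staining divides a chromosome into bands, and the unstained ones are known to be gene-rich and early replicating. The 12 Giemsa-negative bands of chromosome 16 make up 44.4% of its length, close to the 42.3% in the other autosomes, and held 71.6% of its H89 and 70.1% of its control summits. In these bands there were 12.9 summits per Mb with H89 and 10.8 in the control, which is 2.28-fold (interval 2.08 to 2.49) and 2.32-fold (2.10 to 2.56) the density of such bands on the other autosomes. In the 7 mid-pale bands the excess was 1.72-fold with H89 (1.40 to 2.08) and 1.87-fold in the control (1.52 to 2.29). The single darkest band of the chromosome, 16q21, had 2.58 summits per Mb with H89 and 2.69 in the control, 3.14-fold (1.99 to 4.75) and 3.93-fold (2.50 to 5.91) the density of the darkest bands elsewhere. Its summits lay only towards its ends, next to Giemsa-negative bands. Between 58768134 and 66440735 with H89, and between 58768083 and 66547216 in the control, it had none. The higher density was thus present within each class shown, although 3 of them, the darkest included, rest on 1 band each. The 2 centromeric bands of chromosome 16 held no summit.

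**Figure D2:**
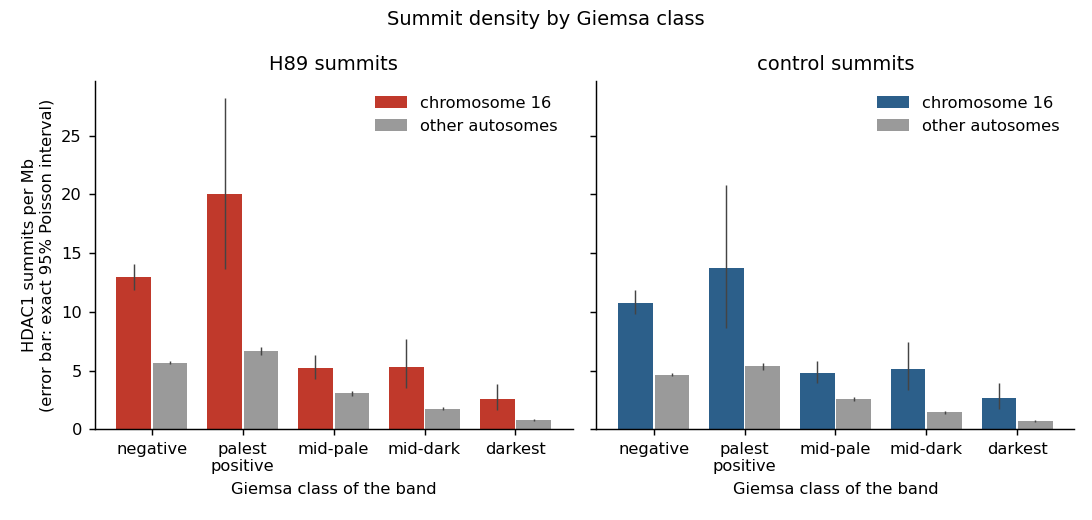
HDAC1 summits per Mb in 5 Giemsa classes of bands on chromosome 16 (coloured bars) and on the other autosomes (grey bars), with H89 (left panel) and in the control (right panel); error bars are exact 95% Poisson intervals. In every class shown the chromosome 16 bar is the higher one, from 12.9 and 10.8 per Mb in Giemsa-negative bands to 2.58 and 2.69 in the darkest band.

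The short arm was the denser one. Arm 16p held 397 H89 and 335 control summits, or 10.8 and 9.15 per Mb, and arm 16q held 328 and 283, or 6.10 and 5.26 per Mb. The density of 16p over 16q was 1.78-fold with H89 (interval 1.53 to 2.06) and 1.74-fold in the control (1.48 to 2.04). The heterochromatin of the chromosome lies on 16q. Without the centromeric and variable bands the density of 16p over 16q was 1.56-fold with H89 and 1.52-fold in the control. The H89 to control ratio was 1.19 (1.02 to 1.37) on 16p and 1.16 (0.986 to 1.36) on 16q, which differ by far less than either interval. The share of H89 summits with a control summit within 1000 bp was 74.6% on 16p and 75.3% on 16q.

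A few bands held much of the chromosome. The bands 16p13.3, 16p11.2, 16q22.1 and 16q24.3 together held 48.6% of its H89 and 48.2% of its control summits on 22.3% of its length. Of the 25 bands, 23 had a summit. Of these, 18 held more summits with H89, 3 held fewer (16p13.2, 16p11.2 and 16q21) and 2 held equal numbers. In 16p13.3 alone did the interval of the ratio exclude 1, among 23 bands that were looked at without adjustment. That interval (1.08 to 1.82) included the ratio of the whole chromosome (1.17) and that of the other autosomes (1.22).

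The terminal band of the short arm, 16p13.3, held the most HDAC1 summits and the largest surplus with H89. The band carries the alpha-globin genes and CREBBP, which encodes the acetyltransferase that CREB recruits once protein kinase A has phosphorylated it. It had 144 summits with H89 and 103 in the control, or 18.2 and 13.04 per Mb. The ratio was 1.40 (interval 1.08 to 1.82, which includes the 1.17 of the whole chromosome). That difference of 41 summits stands within a difference of 107 on the whole chromosome. Outside 16p13.3 there were 581 with H89 and 515 in the control, a ratio of 1.13 (1.0002 to 1.27). The summits crowded towards the end of the arm. The first 5 Mb held 141 of the 144 H89 summits and 100 of the 103 control summits of the band, and the remaining 2.9 Mb held 3 in each list. In both lists no summit was called between positions 5148092 and 8768177, which reaches from 16p13.3 into 16p13.2.

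In 16p13.3 most summits without a partner scored low. Summits with a partner are nearly equal in number in the 2 lists by the way they are counted (96 with H89, 95 in the control). The surplus with H89 therefore falls among those without one, which is no separate result. Of the 144 H89 summits, 48 had no control summit within 1000 bp, whereas 8 of the 103 control summits had no H89 summit there. The median score of these summits was 2.96 with H89 and 3.45 in the control, and 8 of the 48 H89 and 3 of the 8 control ones scored 5 or more. The 48 were 26.4% (interval 20.1 to 33.4) of all H89 summits without a partner on the chromosome, beside 19.9% of all its H89 summits. The 8 were 10% (4.42 to 18.8) of such control summits, beside 16.7% of all control summits. Summits scoring below 3 made up 31.9% of the H89 and 25.2% of the control summits of the band. At a score of 5 or more the band held 66 with H89 and 48 in the control. A site missing from the control list fell below the caller's threshold there, which does not show that control cells lack HDAC1 at it.

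Band 16p11.2, next to the centromere on the short arm, had nearly equal numbers. It is known for large segmental duplications and recurrent copy number changes. There were 87 summits with H89 and 89 in the control, or 13.4 and 13.7 per Mb, a ratio of 0.978 (interval 0.719 to 1.33). Of those scoring 5 or more there were 41 with H89 and 31 in the control. Sharing was 83.9% (interval 74.5 to 90.9) of its H89 summits, against 66.7% (58.3 to 74.3) in 16p13.3. Of its control summits 82.0% were shared (72.5 to 89.4), against 92.2% (85.3 to 96.6) in 16p13.3. The window with the most summits of the chromosome lay here, from 30000001 to 31000000, with 36 H89 and 28 control summits. The difference between the ratios of 16p13.3 and 16p11.2 was not tested, and their intervals overlap.

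Band 16q22.1 held the most summits of the long arm. The band carries CDH1, the gene of the epithelial adhesion protein E-cadherin, and CTCF, the gene of the insulator protein. There were 77 summits with H89 and 72 in the control, or 18.8 and 17.6 per Mb, a ratio of 1.07 (interval 0.765 to 1.50). Of those scoring 10 or more there were 11 with H89 and 2 in the control, a ratio of 5.50 with a wide interval (1.2004 to 51.1), beside 1.78 for the whole chromosome. This ratio depends on the minimum, which lies just above a frequent score, 9.92 with H89 and 9.94 in the control. Control summits of the band at 66914556, 68056952, 69166709 and 70191831 scored 9.94 and were left out by it. So were H89 summits at 68056916 (9.92) and 68268329 (9.97). At 5 or more the ratio of the band was 1.36 (0.811 to 2.30). At 10 or more the ratio was 2.29 (0.890 to 6.57) in 16p13.3, 1.33 (0.406 to 4.66) in 16p11.2 and 1.75 (0.445 to 8.15) in 16q24.3, and each of these intervals included 1. Shared sites made up 80.5% of the H89 and 87.5% of the control summits of the band. Of its 62 one-to-one pairs, 37 scored higher with H89 by more than 0.1 and 6 lower.

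Band 16q24.3, at the tip of the long arm, was the densest band of the chromosome in both lists. The band carries FANCA, a gene of DNA crosslink repair, and MC1R, the gene of the melanocortin receptor, which signals through cyclic AMP in pigment cells. There were 44 summits with H89 and 34 in the control, or 26.6 per Mb (interval 19.3 to 35.7) and 20.5 per Mb (14.2 to 28.7). The ratio was 1.29 (0.808 to 2.09) over all its summits and 2.50 (1.05 to 6.56) among those scoring 5 or more, from 20 with H89 and 8 in the control. Of its H89 summits 65.9% were shared (50.1 to 79.5, which includes the 74.9% of the whole chromosome), and of its control summits 85.3%. Its neighbour 16q24.2 had 32 summits with H89 and 22 in the control, and all 22 of the control summits were shared. The last 5 Mb of the arm held 89 with H89 and 66 in the control, a ratio of 1.35 (0.970 to 1.88), beside 1.41 (1.08 to 1.84) in the first 5 Mb of 16p.

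The other bands with the most summits differed in density more than in ratio. Band 16p13.13 had 37 summits with H89 and 27 in the control (17.6 and 12.9 per Mb), and 16p12.2 had 33 and 27 (11 and 9 per Mb). Band 16q23.1 had 27 with H89 and 26 in the control (5.29 and 5.10 per Mb), and 92.6% of its H89 summits were shared. In 16q21, which carries several cadherin genes, there were 24 with H89 and 25 in the control. A stretch of 7.67 Mb in the H89 list and 7.78 Mb in the control list held no summit there, starting at positions 58768134 and 58768083. The small band 16q13 had 10 summits in each list, and all 10 were shared in both.

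No summit was called in the centromeric bands 16p11.1 and 16q11.1 in either list. They span 4 Mb. With 3 counts taken as the upper limit for a count of 0, an approximate bound, the share could reach 0.414% of the H89 and 0.485% of the control summits. The longest stretch without a summit ran from 32994236 to 46432531 with H89 and from 32994163 to 46432562 in the control, 13.4 Mb in both, across the centromere and the heterochromatin. Band 16q11.2, which holds that heterochromatin, had 9 summits with H89 and 7 in the control, all between 46432531 and 46953129 at its distal end. How much of these bands can be mapped in hg19 was not measured.

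**Figure D3:**
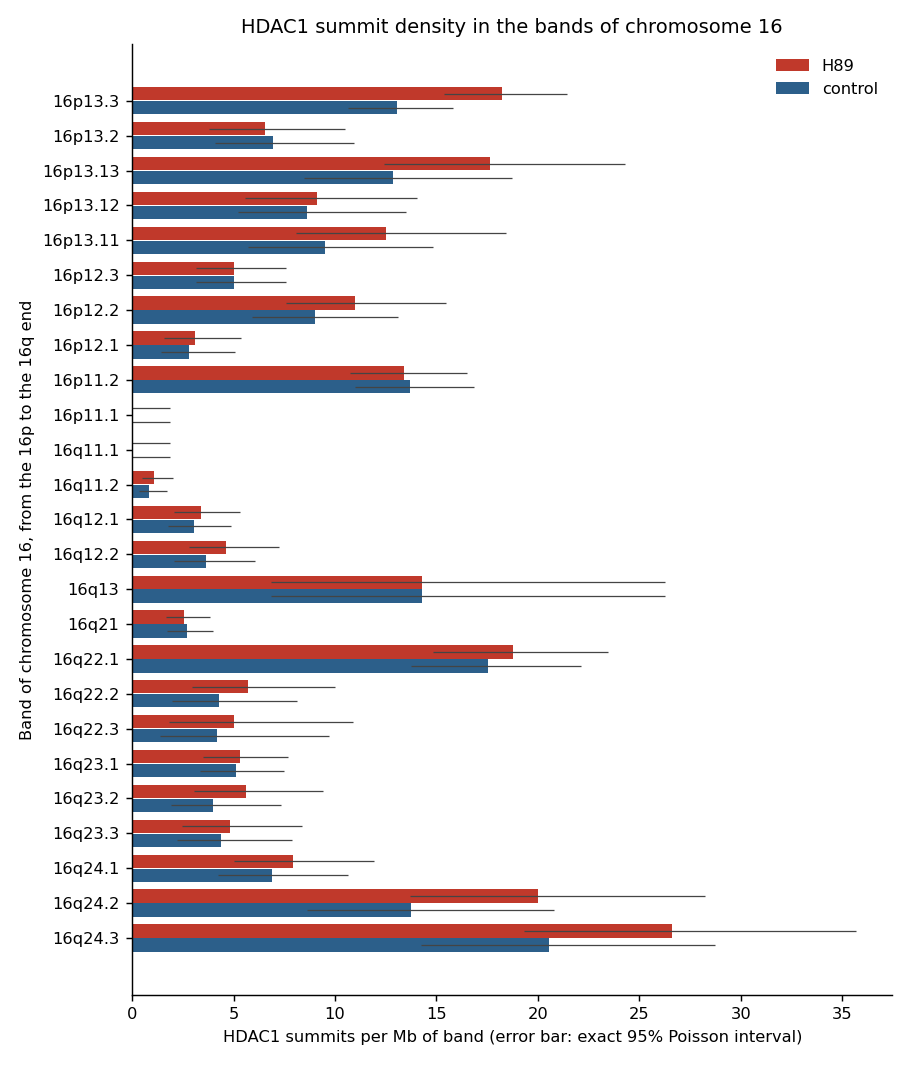
HDAC1 summits per Mb in each of the 25 bands of chromosome 16, from the 16p end (top) to the 16q end, with H89 (red, upper bar) and in the control (blue, lower bar); error bars are exact 95% Poisson intervals. Density is highest in 16q24.3 in both lists (26.6 and 20.5 per Mb), is 18.2 and 13.04 per Mb in 16p13.3, falls to 0 in the centromeric bands, and the intervals of the bars of a band overlap throughout.

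Neighbouring summits often lay close together. The median distance to the next summit of the same list was 31.9 kb with H89 and 40.8 kb in the control. Of the H89 summits 225 (31.0%, interval 27.7 to 34.5) had another H89 summit within 5 kb, beside 24.6% over the whole H89 list. Of the control summits 178 (28.8%, 25.3 to 32.5) had another control summit within 5 kb, beside 21.2% over the whole control list. Chromosomes 17 (35.5% and 33.8%) and 20 (32.5% and 29.1%) had shares above these. Chromosome 19, the densest autosome, had 31.4% with H89 and 22.3% in the control. The largest groups joined by such distances had 4 summits, and there were 6 of them with H89 and 1 in the control. That control group, in 16p13.2, was also a group with H89. Its H89 summits lay at 8954026, 8957671, 8960576 and 8962790 and scored 2.03, 10.2, 4.99 and 15.6. Its control summits lay at 8954078, 8957671, 8960444 and 8962746 and scored 2.04, 7.29, 2.44 and 7.39. The 4 sites kept their places to within 132 bp, and 3 of them scored higher with H89 by more than 0.1.

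Most HDAC1 sites of chromosome 16 were called in both libraries. Of the H89 summits, 543 had a control summit within 1000 bp (74.9%, interval 71.6 to 78.0), beside 72.2% over the whole H89 list. Of the control summits, 538 had an H89 summit within that distance (87.1%, 84.2 to 89.6), beside 87.6% over the whole control list. Both shares are near the background. This left 182 H89 and 80 control summits without a partner. One-to-one pairs, which are mutually nearest summits within 1000 bp, numbered 530. Their summits lay a median of 51 bp apart, 396 pairs (74.7%) lay within 100 bp and 13 fell on the same base.

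Sharing followed the score. Among H89 summits scoring from 2 up to 3, 51.5% (interval 43.7 to 59.2) had a control partner, and from 5 up to 7 the share was 88.1% (81.8 to 92.8). All 18 H89 summits scoring 20 or more were shared (interval 81.5% to 100%), as were all 5 such control summits. For control summits scoring from 2 up to 3 the share was 77.1% (70.0 to 83.3). Summits without a partner had a median score of 3.42 with H89 and 3.37 in the control, against 5.49 and 4.77 for those with one. Their nearest summit of the other list lay at a median of 14.1 kb for the H89 and 13.8 kb for the control summits. In 48 of the 182 H89 summits without a partner, and in 27 of the 80 control ones, it lay within 5 kb.

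**Figure D4:**
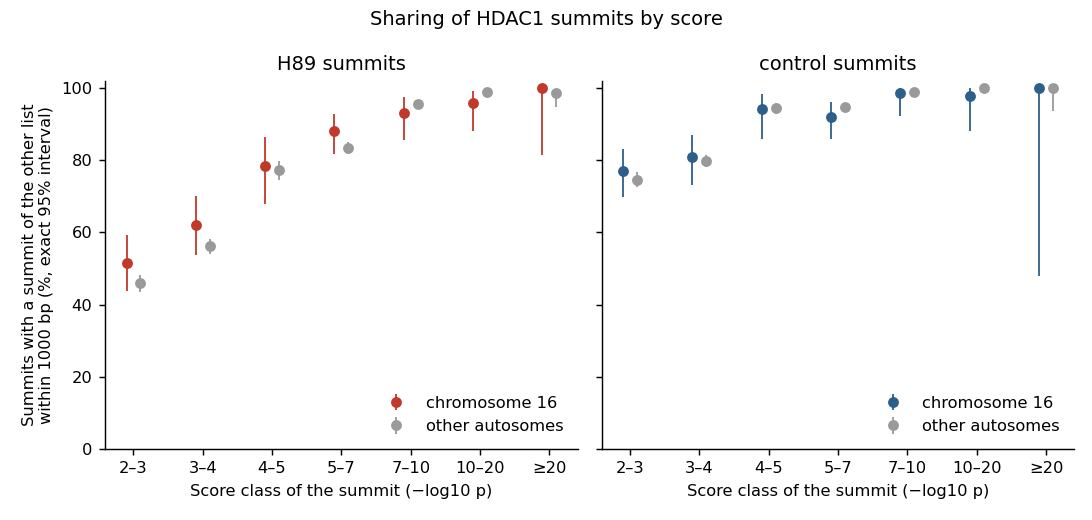
Percentage of summits with a summit of the other list within 1000 bp, by score class, for H89 summits (left panel) and control summits (right panel), on chromosome 16 (coloured) and on the other autosomes (grey); error bars are exact 95% intervals. The share climbs with the score on chromosome 16, from 51.5% to 100% for H89 summits and from 77.1% to 100% for control summits, and the other autosomes run close to it.

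Paired sites leaned towards higher scores with H89. Of the 530 pairs, 282 scored higher with H89 by more than 0.1 (53.2%, interval 48.9 to 57.5), beside 50.2% over all pairs of the series. Another 74 scored lower with H89 by more than 0.1 (13.96%, 11.1 to 17.2), beside 14.5%, and 174 were within 0.1. Both shares are close to the background. The median difference, H89 minus control, was 0.88 on the −log10 scale, beside 0 over the pairs of the other autosomes, 0.91 on chromosome 17 and -0.0065 on chromosome 20. With so many pairs within 0.1, a small change in the share of higher pairs can move this median far. That share was 49.5% over the other autosomes, 52.9% on chromosome 17 and 48.1% on chromosome 20. On 16p 158 of 288 pairs were higher with H89 and 42 lower, and on 16q 124 of 242 were higher and 32 lower. In 21 of the 23 bands with summits more pairs were higher than lower with H89, and in 16q22.3 and 16q23.3 the numbers were equal. In the class of mean scores from 10 up to 20 there were 59 pairs, of which 43 scored higher and 4 lower with H89, and the median difference was 3.53. The 43 were 72.9% (interval 59.7 to 83.6). On the other autosomes 73.9% of such pairs were higher and 12.5% lower, with a median difference of 2.39. The 9 pairs whose mean score reached 20 were all higher with H89 (interval 66.4% to 100%), with a median difference of 8.004. On the other autosomes 81.7% of such pairs were higher, a share inside that interval, and 7.53% lower, with a median difference of 5.22. If every site gained the same proportion of counts, the score difference would also widen with the score. Whether that happened here was not tested, as counts per site are not known.

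**Figure D5:**
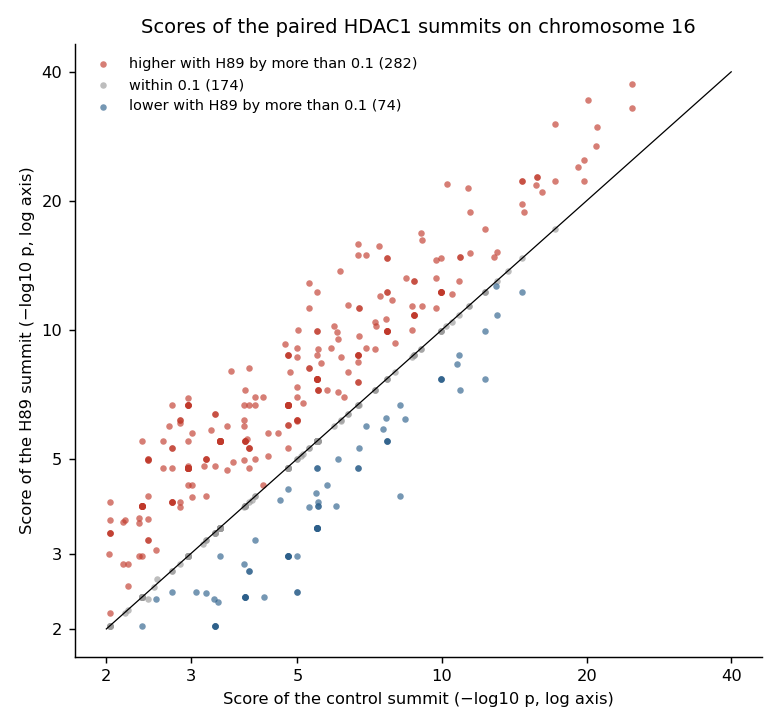
Score of the H89 summit against the score of the control summit for the 530 one-to-one pairs of chromosome 16, both −log10 p on log axes; the line marks equal scores. Red points (282) were higher with H89 by more than 0.1, blue points (74) lower and grey points (174) within 0.1, and all 9 pairs whose mean score reached 20 are red. On the other autosomes, not shown, 81.7% of such pairs were higher.

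The strongest shared sites were spread over both arms. The 10 pairs with the highest lower score, 5 on each arm, all scored higher with H89, by 2.54 to 14.2, and their summits lay within 71 bp of each other. They overlap the pairs of high mean score above. On the other autosomes 73.9% of pairs with mean scores from 10 up to 20, and 81.7% at 20 or more, were higher. The first of the 10 was in 16p11.2, at 30382095 with H89 (score 37.5) and at 30382142 in the control (24.9). In 16p13.12 the site at 12897618 with H89 scored 32.9, and its partner at 12897621 in the control scored 24.9. A site in 16q23.1 scored 29.7 at 75279348 with H89 and 21.0 at 75279312 in the control. In 16p13.3 the strongest pair scored 26.9 at 2932956 with H89 and 20.9 at 2932921 in the control. In 16p13.11 both summits fell on base 16366607 and scored 34.3 with H89 and 20.1 in the control. The remaining 5 lay in 16q22.2, 16q24.3 (2 sites), 16p13.13 and 16q11.2, with scores from 22.2 to 30.2 with H89 and from 17.2 to 19.7 in the control. The site in 16q11.2, at 46918109 with H89, lies in the short stretch at the distal end of that band.

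The pairs were also ranked by their difference, and these values describe that choice. The largest was the site on base 16366607 in 16p13.11, by 14.2. It was followed by 16p13.13 at 12009984 with H89 (30.2 with H89, 17.2 in the control, a difference of 12.998) and by the 16p11.2 site above (12.6). A site in 16q11.2 on base 46723351 in both lists scored 21.9 with H89 and 10.3 in the control. Another in 16p12.3 on base 18533320 scored 21.5 with H89 and 11.3 in the control. Whether any of these sites lies in duplicated sequence, and is thus not independent of another, was not tested. At the other end, a pair in 16p13.3 scored 7.66 at 4994777 with H89 and 12.3 at 4994926 in the control. A pair in 16q21 scored 4.08 at 57406531 with H89 and 8.18 at 57406817 in the control. A pair in 16p13.11 scored 7.22 at 14826291 with H89 and 10.9 at 14826297 in the control. The most negative differences, from -4.63 to -2.55, were smaller than the largest positive ones, from 10.1 to 14.2. The other 2 of the 5 most negative pairs, both in 16p11.2, had the same scores, 2.44 with H89 and 4.98 in the control. Their H89 summits lay at 28610692 and 28623939, in a band known for duplicated sequence, and whether the same reads were counted at both was not tested. The same holds for a stronger case in that band, looked up after the values were seen. The H89 summits at 29465711 and 30205081 both scored 22.7, and their control partners both scored 15.8. Both are among the 18 H89 summits scoring 20 or more.

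Summits called in 1 library alone reached high scores at few sites. With H89, 3 of the 182 summits without a partner scored 10 or more. They lay in 16q24.3 at 88905645 (12.97, with the nearest control summit 17.5 kb away), in 16p13.3 at 2178159 (10.9, 80.4 kb) and in 16q24.3 at 88897874 (10.8, 19.2 kb). Of the 10 highest, 5 were in 16p13.3 and 4 in 16q24.3, and the other one was in 16q12.1 at 48278320. Bands 16p13.3 and 16q24.3 held 26.4% and 8.24% of the 182 H89 summits without a partner, and 19.9% and 6.07% of all H89 summits of the chromosome. The 5 in 16p13.3 included 420324 (9.02) and 3 sites that all scored 8.71, at 771264, 1164069 and 4897553. In the control, 1 of the 80 summits without a partner scored 10 or more. It lay in 16q24.3 at 88999893, scored 14.7 and had its nearest H89 summit 76.6 kb away. The next, in 16p13.13 at 11587784, scored 7.23, and the other 8 of the 10 highest scored 5.50 to 5.76. Of the 10 highest control summits without a partner, 3 were in 16p13.3 and 1 was in 16q24.3. These bands held 10% and 6.25% of the 80 control summits without a partner, and 16.7% and 5.50% of all control summits of the chromosome. Several of the 10 had the same score of 5.50, and equal scores were ranked by position. In all, 12 of the 80 scored 5 or more. Of those 10 control summits, 5 had an H89 summit within 5 kb, whereas none of the 10 H89 summits had a control summit that near. In the class from 10 up to 20, chromosome 16 shared 68 of its 71 H89 summits (95.8%, interval 88.1 to 99.1). Elsewhere on the autosomes the count was 837 of 846 (98.9%), inside that interval. At 20 or more it was 18 of 18 and 137 of 139. All control summits of the other autosomes in these classes were shared (475 of 475 and 57 of 57). The site at 88999893 was thus the only control summit of the autosomes scoring 10 or more without a partner.

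The scores of chromosome 16 fell less often on the commonest set of levels than those of most autosomes. There were 148 distinct scores with H89 and 121 in the control on this chromosome. Some of them can be read as whole numbers of counts over a fixed expected mean, a reading taken from the values alone. A first Poisson mean, 0.0271 with H89 and 0.0269 in the control, came from the commonest score of each whole list in the range from 5 to 6, read as 3 or more counts. Close to each score that this mean predicts for 2 to 7 counts, the commonest listed score lay within 3.28e-05 of the prediction. The match at 3 counts was fixed in advance by the choice of the mean. On chromosome 16, 24.7% of H89 summits (interval 21.6 to 28.0) and 26.2% of control summits (22.8 to 29.9) lay on the steps of this mean. On the other autosomes the shares were 42.6% with H89 (41.6 to 43.5) and 42.7% in the control (41.7 to 43.8). Chromosome 16 had the lowest share of the 22 autosomes with H89 and the second lowest in the control, after chromosome 19 (25.9%). Chromosomes 17 (30.5% with H89, 28.6% in the control) and 20 (33.5% and 34.6%) lay between. A second, higher mean, 0.0477 with H89 and 0.0473 in the control, held 20.7% of H89 and 19.4% of control summits on chromosome 16, close to the 20.7% and 20.9% elsewhere. The rest of the scores on chromosome 16 were not fitted. For a given count a higher mean gives a lower score: 3 counts score 5.49 at the first and 4.76 at the second mean with H89. What sets the mean of a site was not tested, and neither the peak caller nor its control is given in the sources used here.

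On that reading, many of the calls rest on few counts. Step 2 of the first mean, a score of 3.44 with H89 and 3.45 in the control, held 66 H89 and 59 control summits of chromosome 16, and step 3 held 55 in each. Step 4 (7.66 with H89, 7.67 in the control) held 18 H89 and 16 control summits. Step 5 held 13 with H89 and 14 in the control, and step 6 held 13 and 6. Step 5 scores 9.92 with H89 and 9.94 in the control, just below the minimum of 10 used above. The same step differs by less than 0.1 between the lists, which is why scores within 0.1 were counted as equal. Steps 2 and 3 of both fitted means together held 220 H89 summits (30.3%) and 210 control summits (33.98%) of the chromosome, which on this reading of the scale are calls on 2 or 3 counts.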

How the data were processed

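CUT&Tag libraries of HepG2 cells were made with H89 (1 library), without it (1 library) and with IgG (1 library, not analysed here), per the labels. Bowtie 0.12.2 and the hg19 build are named in the submitters' processing notes. Which program called the peaks, against which control and at what threshold is not given in the sources used here. Duplicated sequence gains summits if multiply mapping reads were kept. The authors deposited 2 lists of 1-bp summits with a score, which is read from its values as a −log10 p-value without adjustment. Each list was assigned by its peak names to the sample titled for it. Read depth is unknown.

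From these, summits on chromosome 16 were counted by band (hg19 table of circlize 0.4.16, R 4.3.3), paired within 1000 bp and compared, with scores within 0.1 counted as equal. Score steps were matched to within 0.001. Functions were tested on simulated data. Sites were named by rank: the 10 highest pairs by lower score, the 10 highest summits without a partner in each list, and the 5 largest and 5 most negative differences. Ties were broken by position. Bands named were the 4 in the choice of the set, the 5 others with the most summits and those without any; 16q13, 16q24.2, 16q11.2, the group in 16p13.2 and the equal pairs at 29465711 and 30205081 were named after their values were seen. Members, bands and rules were chosen with earlier results of these data known. Alternatives were other minimum scores, pairing distances, merging within 500 bp, other tie limits, band lengths and comparison chromosomes. The scripts ran in Python 3.11.15 (scipy 1.17.1, pandas 2.3.3, numpy 2.4.6, matplotlib 3.10.9).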

Additional observations from a re-analysis of the deposited data

How the results depend on the processing

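Of 48 alternatives to 13 results, 31 gave a value inside the interval of the value reported and none changed the direction of a ratio whose interval excluded 1. The H89 to control ratio of chromosome 16 was 1.33 at scores of 5 or more and 1.78 at 10 or more, and that of 16q24.3 was 2.50 at 5 or more. The ratio of 16p13.3 at scores of 5 or more was 1.38 with an interval (0.934 to 2.04) that included 1. The ratio of 16p11.2 was 1.32 there, above 1, with an interval (0.809 to 2.18) that also included 1. The share of H89 summits with a partner was 1.79% on the same base, 54.6% within 100 bp, 78.6% within 2000 bp and 65.2% at scores of 5 or more in both lists. The share of control summits was 2.10% on the same base, 64.1% within 100 bp, 84.0% within 500 bp and 76.7% when each list was reduced to its 309 top summits. Pairs lower with H89 made up 44.7% with any difference counted, because the same step scores slightly lower with H89. With a mean score of 5 or more, 61.0% of pairs were higher and 10.4% lower with H89. Against chromosomes 2, 14, 17 and 20, the density of chromosome 16 was 1.50-fold with H89 and 1.51-fold in the control. Without 16p13.3, the density of 16p over 16q was 1.44-fold with H89. No paired analysis was possible because each condition has a single library. All values are limited by that and by unknown depth.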
